A study of Homo sapiens with 24 samples.

Results

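P-Rex1 is an exchange factor that loads the small GTPase Rac1 with GTP. It is switched on jointly by PIP3, the lipid product of PI3K, and by Gβγ subunits released from G protein-coupled receptors, and active Rac1 then drives actin remodelling and cell migration. In luminal breast cancer cells P-Rex1 is abundant and relays signals of the ErbB3 receptor and of the chemokine receptor CXCR4 to Rac1. Gene expression is described here for T-47D cells, a luminal, estrogen receptor-positive breast cancer line, in which P-Rex1 was silenced with 1 RNA duplex and which received no growth factor.

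The comparison holds the 3 arrays of cells with P-Rex1 RNAi #1 and vehicle (PBS) and the 3 arrays of cells with a non-target control duplex (NTC) and vehicle, 6 of the 24 arrays of the series. It asks how starved cells with P-Rex1 RNAi #1 differ from those with NTC before any stimulus. With 1 duplex, effects of losing P-Rex1 and other effects of the duplex cannot be told apart. Cells were transfected with duplexes of a modified siRNA type (ON-TARGETplus), kept without serum for 48 h, beginning 16 h after transfection, and given vehicle for 6 h. The other arrays hold cells with a second P-Rex1 duplex (#2) and parental cells with vehicle, and all 4 kinds of cell after heregulin (HRG, a ligand of ErbB3 and ErbB4, 20 ng/ml for 6 h), each in 3 biological replicates. Silencing was transient and partial, all groups are the same cell line, and parental cells differ from RNAi cells by the whole transfection, not by the duplex alone. The arrays carry 28536 probe sets, of which the 21042 with a gene symbol were tested. Values are log2 expression after the authors' Robust Multichip Average (RMA), so that a difference of 1 is a doubling, and probe sets were called with limma where the adjusted p was under 0.05 and the fold over 1.5, which is 0.585 on the log2 scale.

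Array medians of the 6 arrays lay between 6.05 and 6.18. On the second principal component, which held 10.9% of the variance, P-Rex1 RNAi #1 replicate 2 stood at -17.46, against -4.50 to 8.18 for the other arrays of the comparison. That array also had the highest median and the lowest array weight in limma, 0.41. Same-numbered arrays were not always alike. NRN1, which encodes the neuronal surface protein neuritin, read 4.29, 5.99 and 8.11 in P-Rex1 RNAi #1 arrays and 4.55, 4.46 and 6.64 in NTC arrays, and VIM (vimentin) read 5.92, 6.51 and 7.12, against 5.92, 5.78 and 6.81. Replicate 1 was low for both genes in both groups and replicate 3 was high in both, while replicate 2 was raised with P-Rex1 RNAi #1 but not with NTC. The labels do not say which arrays share a culture or passage, so whether a replicate number marks the same cells in both groups, and whether each array carries the right number, is not known here. The part of these patterns in the results was not tested. Counts are also given without #1 replicate 2 and, a choice made after these values were seen, from replicates 1 and 3 of both groups alone.

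The luminal markers (among them KRT8, KRT18, EPCAM, ESR1 and GATA3) averaged 11.28 to 11.30 on P-Rex1 RNAi #1 arrays and 11.20 to 11.28 on NTC arrays, and none of the 10 passed the test. Markers of fibroblasts averaged 5.04 to 5.19 and 5.01 to 5.06, those of leukocytes 4.56 to 4.76 and 4.58 to 4.63, and those of endothelial cells 4.71 to 4.92 and 4.70 to 4.75. These lie around the level of 5.08 under which the dimmest 25% of probe sets fall.

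PREX1 itself was lower with duplex #1. Its probe set (8066848) read 9.09, 8.91 and 8.98 in P-Rex1 RNAi #1 arrays, against 10.52, 10.36 and 10.38 in NTC arrays. The groups were far from overlapping, and the gap between them was many times the spread within either. The means were 8.99 ± 0.09 and 10.42 ± 0.09 (SD, n = 3 each), a log2 difference of -1.43 (SE 0.07, 95% interval -1.58 to -1.27), or 2.69-fold lower with P-Rex1 RNAi #1 (limma, adjusted p = 1.12e-10). An exact two-sided permutation test over the 6 arrays gave p = 0.1, the smallest that 3 against 3 can give. Parental cells read 10.63, 10.59 and 10.59, and the difference of #1 from them was -1.61. Duplex #2 left PREX1 between 8.97 and 9.03, and #1 minus #2 was -0.01 with an interval of -0.16 to 0.15 (limma, adjusted p = 0.984). In a lysate of many cells, fewer silenced cells and less silencing per cell cannot be told apart.

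Of the 21042 probe sets tested, 9 were called lower with P-Rex1 RNAi #1 (0.0428%) and 0 were called higher (0%). PREX1 was the largest of the 9. At an adjusted p under 0.05 with no limit on the fold, 89 probe sets were lower (0.423%) and 12 were higher (0.057%), and at an unadjusted p under 0.05 the numbers were 1468 (6.98%) and 1144 (5.44%). Over all tested probe sets the median difference was 0.0099 and the SD 0.12, and 96.1% lay within 0.25 of 0. Rank Products is the test that the study's methods name for the RNAi arrays. It gave 14 lower and 8 higher probe sets at an unadjusted p under 0.005 and a fold over 1.5. The study states these limits for its HRG comparison, not for the RNAi arrays. All 9 probe sets called by limma were among the 14.

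**Figure D1:**
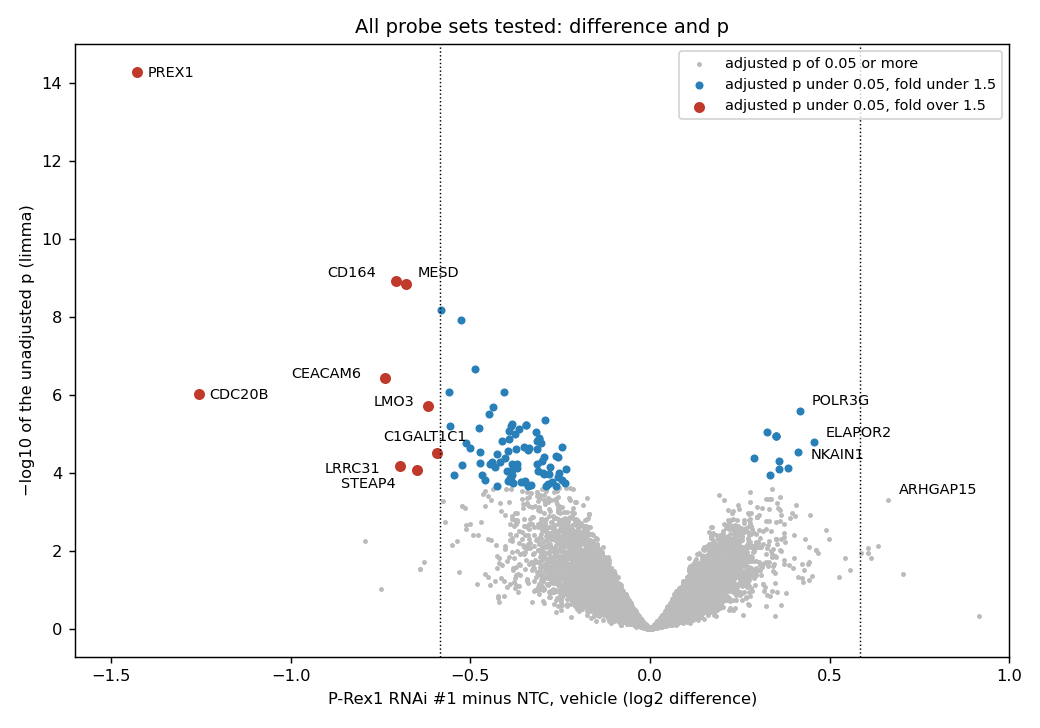
Each point is one of the 21042 probe sets tested, placed by the log2 difference of P-Rex1 RNAi #1 minus NTC in vehicle (x axis) and by −log10 of the unadjusted p of limma (y axis), with dotted lines at a fold of 1.5. PREX1 stands alone at -1.43, the 9 called probe sets are all on the lower side, and no probe set on the higher side is both past the adjusted p and past the fold.

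None of the 8 called genes other than PREX1 is in the lists of the Rac pathway described further on. CEACAM6, a GPI-anchored adhesion molecule of the carcinoembryonic antigen family (probe set 8029098), read 6.37, 5.98 and 6.09 with P-Rex1 RNAi #1, against 6.91, 6.81 and 6.93 with NTC. CD164, a sialomucin of endosomes and the cell surface (probe set 8128716), read 11.35, 11.07 and 11.24, against 11.91, 11.95 and 11.92 with NTC. C1GALT1C1, the chaperone that the core 1 O-glycan galactosyltransferase needs (probe set 8174820), read 6.68, 6.42 and 6.40, against 7.18, 7.21 and 6.89 with NTC. In all 3 genes every P-Rex1 RNAi #1 array lay below every NTC array. The log2 differences were -0.74 (SE 0.10) for CEACAM6, -0.71 (SE 0.07) for CD164 and -0.59 (SE 0.11) for C1GALT1C1, with adjusted p of 0.00112, 1.01e-05 and 0.0139 in limma.

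MESD, the endoplasmic reticulum chaperone that folds the Wnt co-receptors LRP5 and LRP6 (probe set 7990830), read 8.09, 7.92 and 7.80 with P-Rex1 RNAi #1, against 8.54, 8.67 and 8.64 with NTC. Its difference was -0.68 (SE 0.07), 1.60-fold lower (limma, adjusted p = 1.01e-05), and the groups were well apart. STEAP4, a metalloreductase of the plasma membrane and endosomes (probe set 8140840), read 6.57, 6.29 and 6.65, against 7.18, 7.14 and 7.13, a difference of -0.65 (SE 0.13, limma adjusted p = 0.0246).

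CDC20B, a relative of the mitotic activator CDC20 known from ciliated epithelia, had the largest difference after PREX1. Its probe set (8112053) read 5.63, 4.96 and 5.68 with P-Rex1 RNAi #1, against 6.55, 6.47 and 7.02 with NTC. All 3 values were lower, with replicate 2 the lowest, and the difference was -1.26 (SE 0.19, interval -1.64 to -0.87), or 2.39-fold (limma, adjusted p = 0.00196). LMO3, a LIM-only partner of transcription factors (probe set 7961580), read 7.45, 7.19 and 7.52, against 7.99, 7.91 and 8.11 with NTC (difference -0.62, SE 0.10, limma adjusted p = 0.00363). LRRC31, a leucine-rich repeat protein of epithelial cells (probe set 8092021), read 5.76, 5.10 and 5.47, against 6.24, 6.36 and 5.81 with NTC. The groups of LRRC31 nearly touch, and its difference was -0.70 (SE 0.14, limma adjusted p = 0.0213).

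**Figure D2:**
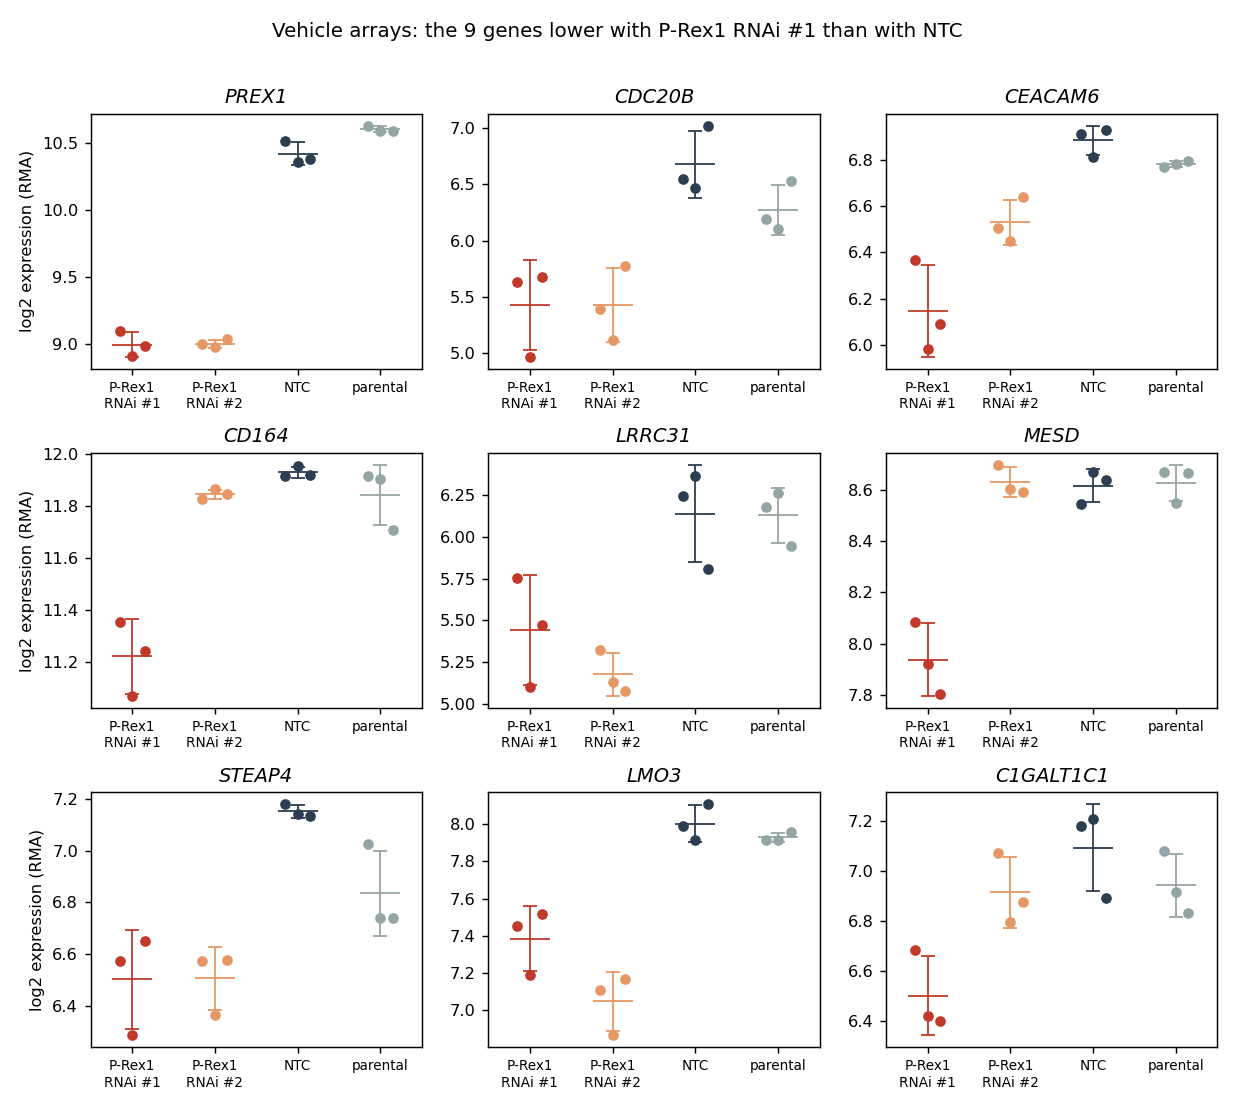
Log2 expression (y axis, RMA, a separate range per gene) of the 9 called genes on each vehicle array of P-Rex1 RNAi #1, P-Rex1 RNAi #2, NTC and parental cells, with the mean and SD of 3 arrays. In PREX1, CDC20B and STEAP4 both duplexes lie at the same level, while in CD164 and MESD the arrays of duplex #2 lie beside NTC and parental cells and those of #1 lie alone.

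PREX1, CDC20B, CEACAM6, CD164 and MESD were called whichever of the 6 arrays was left out, and also from replicates 1 and 3 alone. LRRC31, STEAP4, C1GALT1C1 and LMO3 were not: without #1 replicate 2 none of these 4 was called and 6 probe sets were called lower in all, and from replicates 1 and 3 alone 5 were. When only the 6 arrays were fitted, with no spread shared with the other groups, PREX1 alone was called. The genes next to the fold limit were C1GALT1C1 at -0.59 inside it and DCUN1D3 at -0.58 outside it.

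DCUN1D3, a regulator of cullin neddylation, led the genes that passed the adjusted p with a fold under 1.5. It read 7.92, 7.77 and 7.78 with P-Rex1 RNAi #1, against 8.35, 8.42 and 8.44 with NTC (limma, adjusted p = 3.57e-05). TFF3, a trefoil peptide that luminal cells secrete and that estrogen induces, read 10.42, 10.31 and 10.30, against 10.87, 10.89 and 10.85 (difference -0.53, SE 0.06, limma adjusted p = 5.16e-05). Both genes were lower on all 3 arrays by several times the spread within each group, and both remained past the adjusted p in replicates 1 and 3 alone.

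The 15 genes with the largest differences in this range encode proteins of several kinds. The BMP receptor BMPR1B was lower by a difference of -0.56 (SE 0.09), the kainate receptor subunit GRIK3 by -0.56 (SE 0.08) and the silent potassium channel subunit KCNS3 by -0.49 (SE 0.07), with limma adjusted p of 0.00677, 0.00196 and 0.00077. The phospholipase C and Ras effector PLCE1 was lower by -0.47, the Dickkopf receptor KREMEN1 by -0.45 and the Notch ligand DLL1 by -0.44. The neuronal adhesion protein NLGN1 (-0.55), the histone gene H2BC4 (-0.52), the flavin monooxygenase FMO5 (-0.51), the zinc finger gene ZNF558 (-0.50), C6orf141 (-0.47), EEIG2 (-0.47) and the endoplasmic reticulum peroxidase GPX8 (-0.46) complete these 15. Among the rest of the 89 were relatives of called genes, namely CEACAM1 (-0.35) beside CEACAM6, and STEAP1 (-0.43) and STEAP3 (-0.28) beside STEAP4. The Cdc42 effector CDC42EP3 (-0.31) and NCK2 (-0.28), an adaptor of actin signalling, were also among them. These 5 were picked out after their values were seen, and the other CEACAM and STEAP genes were not counted.

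The 12 higher probe sets comprised 9 single genes and 3 probe sets of the FAM25 family, whose several symbols and equal values leave their gene uncertain. ELAPOR2, an endosome and lysosome-associated apoptosis and autophagy regulator family member, read 8.39, 8.32 and 8.41 with P-Rex1 RNAi #1, against 7.98, 7.91 and 7.87 with NTC (difference 0.46, SE 0.08, limma adjusted p = 0.00984). POLR3G, a subunit of RNA polymerase III, was higher by 0.42 (SE 0.07) and NKAIN1, which binds the sodium pump, by 0.41 (SE 0.08), with limma adjusted p of 0.00412 and 0.0129. The others were the transcription regulator PRDM16 (0.38), GASK1B (0.36), BCAS1 (0.36), the cytochrome CYP4F11 (0.33), the kinase PSKH1 (0.33) and the pre-rRNA processing factor NOP9 (0.29). All of the 89 and the 12 probe sets past the adjusted p had groups that did not overlap. Over all tested probe sets this held for 11.2% below NTC and 8.07% above. The 89 and the 12 were chosen on these same arrays, so their separation is no further evidence. Leaving out 1 array moved the 89 to between 14 (without NTC replicate 2) and 117 (without #1 replicate 1), and it was 23 without #1 replicate 2. The 12 moved to between 0 (without NTC replicate 2) and 40 (without #1 replicate 1), and were 4 without #1 replicate 2. Without NTC replicate 1 the numbers were 34 lower and 4 higher. From replicates 1 and 3 alone 11 were lower and 1 was higher. The 11 lower ones were all among the 89, and the higher one, the tryptophan dioxygenase gene TDO2, was not among the 12.

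In the lists of the Rac pathway around P-Rex1 few other members passed the adjusted p, as did few of all tested probe sets (0.48% in either direction). At that share lists of this size would hold few or none, so the counts show nothing particular to the pathway. Of 21 measured exchange factors of the P-Rex and DBL families, which load Rac and its relatives, PREX1 passed the test and the other 20 did not, with differences between -0.23 for ARHGEF6 and 0.17 for TRIO. PREX2, the closest relative of PREX1, was at 3.97 ± 0.11 with P-Rex1 RNAi #1 and 3.89 ± 0.09 with NTC, and TIAM1 at 8.24 ± 0.02 and 8.13 ± 0.11 (SD, n = 3 each). None of the 13 DOCK and ELMO factors, another family that loads Rac, passed the adjusted p. RAC1, the substrate of P-Rex1, read 10.32, 10.12 and 10.15, against 10.50, 10.45 and 10.53 with NTC, all 3 lower, with a difference of -0.29 (SE 0.07) and a limma adjusted p of 0.0822.

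Among 18 Rac effectors and WAVE complex members, CYFIP2, which binds active Rac1 and holds the WAVE complex, was lower by a difference of -0.34 (9.92, 9.75 and 9.76, against 10.19, 10.15 and 10.10, SE 0.08, limma adjusted p = 0.0453) and the other 17 did not pass. Of 15 Rac inactivators, ARHGAP15, a GTPase-activating protein for Rac1, had the largest difference. It read 5.93, 5.75 and 5.57 with P-Rex1 RNAi #1, against 5.15, 5.33 and 4.78 with NTC, a difference of 0.66 (SE 0.16) that missed the threshold (limma, adjusted p = 0.0711). Its arrays were near the dim end of the range. The 26 genes upstream of P-Rex1 (Gβγ subunits, PI3K and protein kinase A) lay between -0.21 for GNG5 and 0.15 for PIK3CG, with 0 past the adjusted p.

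The 16 ErbB genes and the 18 genes of the CXCR4 axis had 0 members past the adjusted p. ERBB4 read 9.36, 9.26 and 9.16 with P-Rex1 RNAi #1, against 9.51, 9.42 and 9.49 with NTC (difference -0.22, limma adjusted p = 0.163), while ERBB3 differed by -0.01 and ERBB2 by 0.04. CXCR4 was at 6.41 ± 0.04, against 6.59 ± 0.13 (limma, adjusted p = 0.555). Targets of pathways that Rac1 feeds were likewise below the threshold in all lists, with median differences of 0.03 for 43 ERK feedback and early genes, -0.01 for 31 SRF and MRTF targets, 0.01 for 29 YAP and TEAD targets, 0.05 for 35 metalloproteinase and plasminogen system genes and 0.06 for 39 matrix proteins. Among 19 integrins, ITGA10 passed the adjusted p alone (difference -0.31, SE 0.06, limma adjusted p = 0.00893). Of 38 genes that the study lists as the largest HRG responses, a list chosen on arrays of this series and so no independent evidence, LRRC31 was called and 37 were not.

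**Figure D3:**
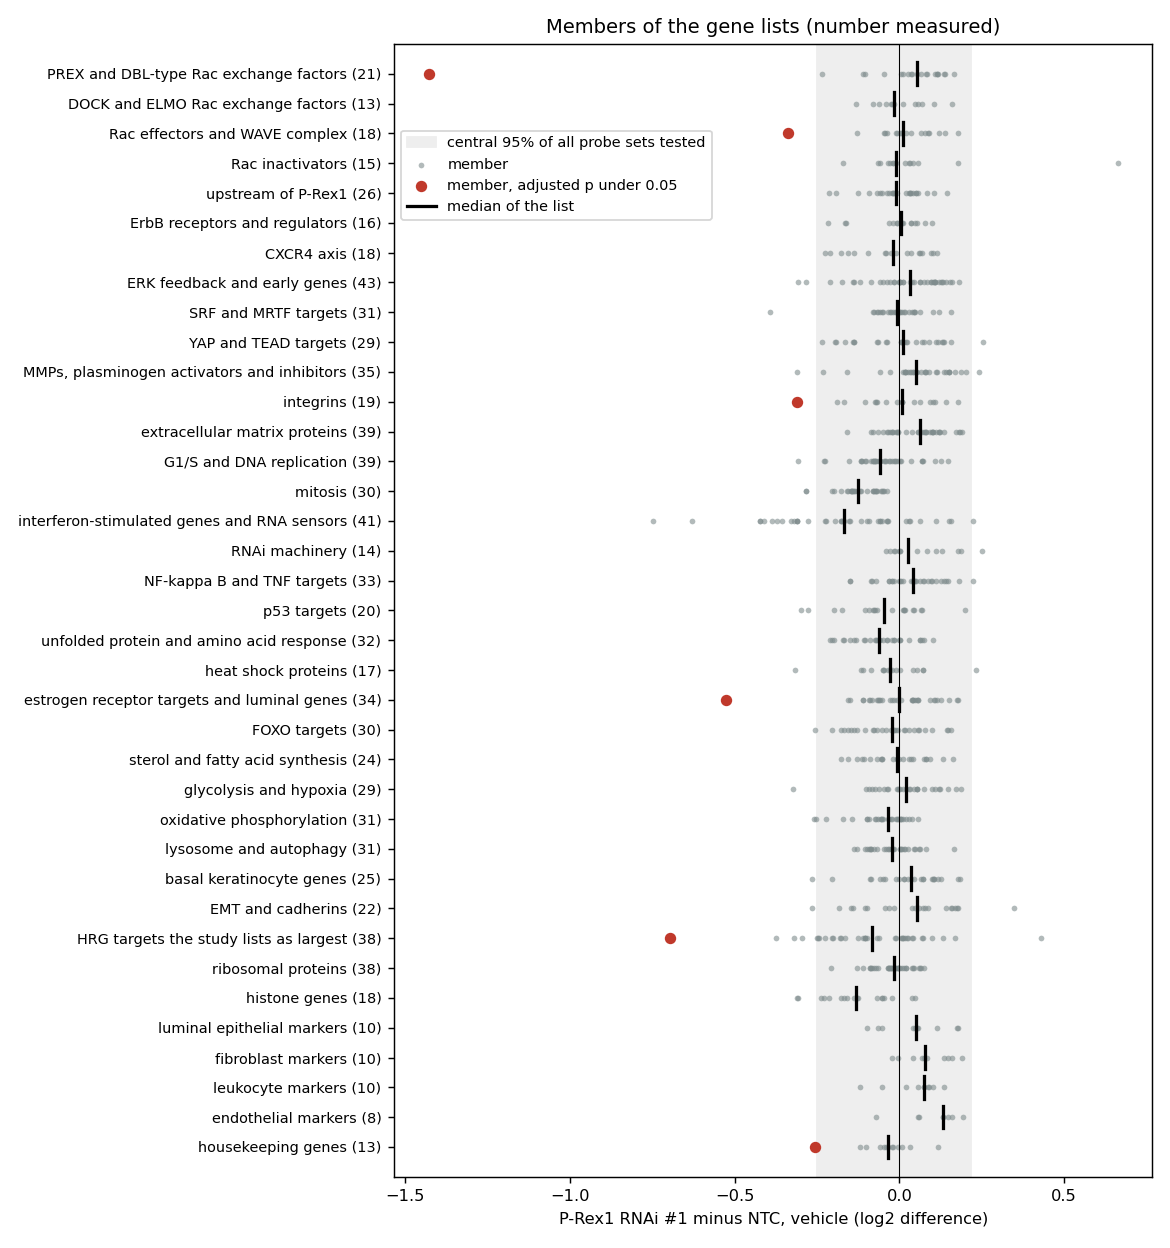
Log2 difference of P-Rex1 RNAi #1 minus NTC in vehicle (x axis) for each measured member of the 37 gene lists (rows, with the number measured), with the list median as a black bar and the central 95% of all tested probe sets shaded. The 6 members past the adjusted p are PREX1, CYFIP2, ITGA10, TFF3, LRRC31 and B2M, and the lists of interferon, histone and mitosis genes have the lowest medians.

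The lists of mitosis, interferon and histone genes had the lowest medians of the 37, with 0 members past the adjusted p. All 30 measured mitosis genes had a negative difference, against 46.1% of all tested probe sets, with a median of -0.13, and in 14 of the 30 (all tested, 11.2%) every P-Rex1 RNAi #1 array lay below every NTC array. The mitotic kinesin KIF20A read 10.03, 9.89 and 10.00, against 10.29, 10.24 and 10.24 (difference -0.28, limma adjusted p = 0.343), and the survivin gene BIRC5 8.22, 8.25 and 8.29, against 8.54, 8.45 and 8.37 (difference -0.20, adjusted p = 0.152). The mean of the 30 genes per array was 9.64, 9.54 and 9.64 with P-Rex1 RNAi #1, 9.79, 9.73 and 9.70 with P-Rex1 RNAi #2, 9.74, 9.73 and 9.71 with NTC and 9.67, 9.62 and 9.54 in parental cells. P-Rex1 RNAi #1 was thus below NTC and within the range of parental cells, where the median difference was 0.00. Without #1 replicate 2 the median was -0.07. On the HRG arrays the median was 0.17, and 2 of the 30 had a negative difference.

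Of 41 interferon-stimulated genes and RNA sensors, 33 had a negative difference (all tested, 46.1%), with a median of -0.17, and in 13 every P-Rex1 RNAi #1 array lay below every NTC array (all tested, 11.2%). IFIT1, which binds foreign RNA, read 6.50, 6.11 and 6.50 with P-Rex1 RNAi #1, against 7.83, 6.56 and 6.96 with NTC, a difference of -0.75 with a wide error (SE 0.43, limma adjusted p = 0.483). The RNA sensor RIGI read 8.36, 8.07 and 8.29, against 8.73, 8.53 and 8.58 (difference -0.37, adjusted p = 0.136), and MX2 differed by -0.32 (adjusted p = 0.0868). The list mean was 6.16, 6.09 and 6.20 with P-Rex1 RNAi #1, 6.16, 6.12 and 6.12 with P-Rex1 RNAi #2, 6.46, 6.24 and 6.29 with NTC and 6.28, 6.68 and 6.27 in parental cells. Both duplexes lay below all control arrays, and parental replicate 2 and NTC replicate 1 were the highest. Without NTC replicate 1, 29 of the 41 were negative and the median was -0.10. Against parental cells 37 of the 41 were negative (all tested, 48.7%), with a median of -0.21. On the HRG arrays 29 of the 41 were negative (all tested, 51.4%), with a median of -0.13.

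Of 18 listed histone genes, 16 had a negative difference (all tested, 46.1%), with a median of -0.13. H2AC20 (-0.31, limma adjusted p = 0.215) and H2BC5 (-0.31, adjusted p = 0.14) led the list. The histone genes H2BC4 (-0.52, limma adjusted p = 0.0211) and H2BC26 (-0.38, adjusted p = 0.0412) passed the adjusted p but are not in this list. On the HRG arrays they differed by -0.02 and -0.06. Probe sets shared by H3-3A and H3P6 passed too, with differences between -0.37 and -0.30, and between -0.36 and -0.33 on the HRG arrays. All of these were picked out after their values were seen, and other histone genes outside the list were not counted. Against parental cells the list median was -0.06, and that of NTC minus parental was 0.08. On the HRG arrays the list median was 0.02, and 8 of the 18 had a negative difference. Of 32 genes of the unfolded protein and amino acid response, 24 had a negative difference and 14 had every P-Rex1 RNAi #1 array below every NTC array (all tested, 11.2%), with a median nearer to 0, -0.06. B2M, a component of MHC class I that is often used as a reference in PCR, read 9.53, 9.55 and 9.61, against 9.87, 9.85 and 9.75 (difference -0.26, limma adjusted p = 0.0158). Parental cells read 9.62, 9.66 and 9.66, from which P-Rex1 RNAi #1 differed by -0.08. On the HRG arrays the B2M difference from NTC was -0.05 (limma, adjusted p = 0.632). Of 13 housekeeping genes B2M was the only one past the adjusted p in vehicle. The 14 genes of the RNAi machinery had 0 past it, with AGO4 the furthest at 0.25 (adjusted p = 0.167).

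**Figure D4:**
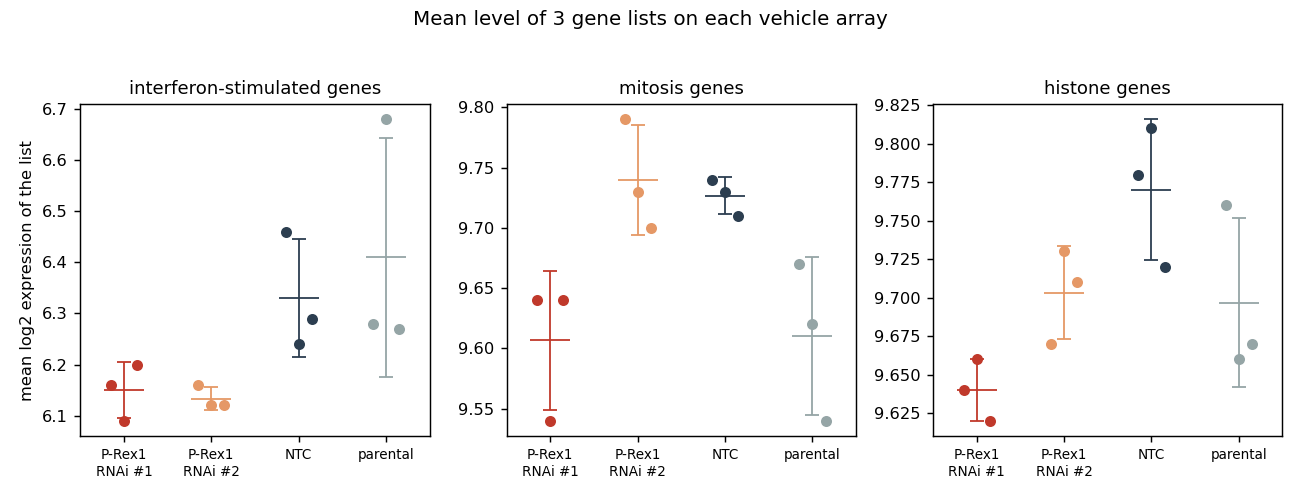
Mean log2 expression (y axis) of 41 interferon-stimulated genes, 30 mitosis genes and 18 histone genes on each vehicle array, with the mean and SD of the 3 arrays of each group. The interferon list is low with both duplexes, whereas the mitosis list is low with P-Rex1 RNAi #1 and in parental cells but not with #2.

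Duplex #2 is directed at the same target, and #1 minus #2 asks where the duplexes differ. A contrast that does not pass does not show that a difference is shared. The duplex sequences were not analysed here. Against NTC, CDC20B differed by -1.26 with #1 and by -1.25 with #2, and STEAP4 by -0.65 with both. LMO3 differed by -0.62 and -0.96, LRRC31 by -0.70 and -0.96, and the arrays of NTC are the same in each pair of values. The direct contrast of #1 minus #2 was 0.00 for CDC20B (95% interval -0.39 to 0.38) and 0.00 for STEAP4 (-0.28 to 0.28), 0.34 for LMO3 (limma, adjusted p = 0.0671) and 0.27 for LRRC31 (adjusted p = 0.414).

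CD164 and MESD stood at control level with #2. CD164 read 11.35, 11.07 and 11.24 with #1, against 11.83, 11.86 and 11.84 with #2, and MESD read 8.09, 7.92 and 7.80, against 8.70, 8.60 and 8.59. Neither gene had overlapping arrays between the duplexes. The difference of #1 minus #2 was -0.62 for CD164 (limma, adjusted p = 1.53e-05), -0.69 for MESD (3.04e-06) and -0.61 for DCUN1D3 (5.49e-06), and #2 minus NTC was -0.08, 0.01 and 0.03 for these genes. CEACAM6 lay between (#1 minus #2 -0.38, adjusted p = 0.0499), as did C1GALT1C1 (-0.41, adjusted p = 0.0556). In the other direction, NKAIN1 was 0.66 higher with #1 than with #2 (adjusted p = 2.88e-05). Of the 9 called probe sets 3 differed from #2 and of the 89 lower ones 31 were lower than with #2 (all tested, 1.01%) and 3 were higher (1.34%). Against NTC, 5 of the 9 (PREX1 among them) and 30 of the 89 also passed the adjusted p as lower with #2 (all tested, 1.75%). These counts reuse the #1 or the NTC arrays on which the genes were called.

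The HRG arrays of the same 2 kinds of cell share no array with the vehicle comparison. There PREX1 read 8.60, 8.45 and 8.55 with P-Rex1 RNAi #1, against 9.53, 9.52 and 9.30 with NTC, a difference of -0.92 (SE 0.07, limma adjusted p = 3.66e-07). The gap was smaller than in vehicle by 0.51 (interaction, limma adjusted p = 0.0302), with PREX1 lower on the HRG arrays than on the vehicle arrays of either kind of cell. CDC20B (-0.79), CEACAM6 (-0.63), CD164 (-0.52), MESD (-0.52) and LMO3 (-0.38) were lower again, with adjusted p between 0.000172 for MESD and 0.0291 for LMO3.

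CD164 read 11.22, 11.22 and 11.38 with P-Rex1 RNAi #1 and HRG, against 11.78, 11.84 and 11.75 with NTC and HRG, and MESD 8.18, 8.25 and 8.10, against 8.77, 8.73 and 8.60. Both genes kept the full separation of the groups. On the HRG arrays #1 was also lower than #2 in CD164 by a difference of -0.48 (limma, adjusted p = 0.000178), in MESD by -0.53 (4.65e-05), in DCUN1D3 by -0.50 (4.51e-05) and in TFF3 by -0.27 (0.00886), and higher in NKAIN1 by 0.68 (1.03e-05). PREX1 differed there by -0.20 (0.148).

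LRRC31 (-0.08, limma adjusted p = 0.78) and C1GALT1C1 (0.07, 0.766) did not pass on the HRG arrays. LRRC31 read 4.68, 4.58 and 4.43 with P-Rex1 RNAi #1, against 4.55, 4.84 and 4.54 with NTC, which is below the level of the dimmest 25% of probe sets. STEAP4 turned: it read 5.95, 6.16 and 5.75 with P-Rex1 RNAi #1 and HRG, against 5.45, 5.78 and 5.15 with NTC and HRG, a difference of 0.49 (limma, adjusted p = 0.0462). Its highest NTC array overlapped the lowest #1 array. The STEAP4 interaction was 1.14 (95% interval 0.74 to 1.53, adjusted p = 0.0129): lower than NTC without HRG and higher with it. PREX1 and STEAP4 were the 2 of the 9 called genes with an interaction past the adjusted p (all tested, 0.642%). With vehicle replicates 1 and 3 alone, 0 of the 9 had one.

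Of the 89 probe sets lower in vehicle, 30 passed the adjusted p as lower on the HRG arrays (all tested, 1.33%) and 1, STEAP4, as higher (2.21%), and 51 had every P-Rex1 RNAi #1 array below every NTC array (all tested, 13.8%). Of the 12 higher ones 5 were higher again, namely ELAPOR2 (0.45), POLR3G (0.46), NKAIN1 (0.48), GASK1B (0.40) and PSKH1 (0.21), and 8 had every P-Rex1 RNAi #1 array above every NTC array (all tested, 14.3%). The median difference of the 89 was -0.38 in vehicle and -0.13 with HRG. The probe sets were chosen on the vehicle arrays, so this pair of medians carries no test.

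**Figure D5:**
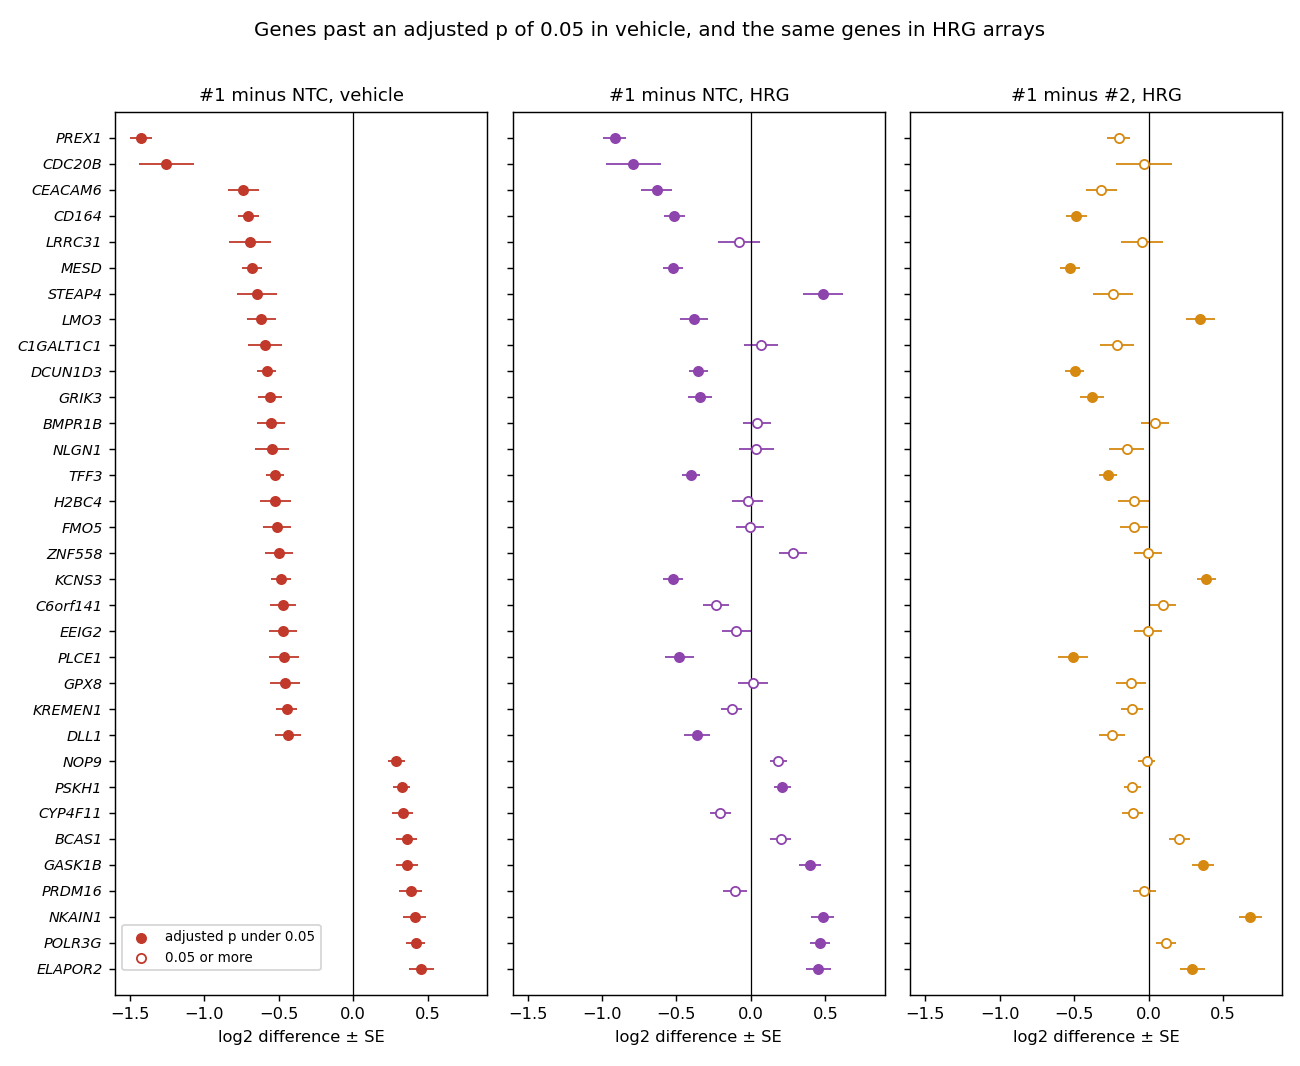
Log2 difference ± SE (x axis) of the 33 named genes past the adjusted p in vehicle (rows), for P-Rex1 RNAi #1 minus NTC in vehicle, the same with HRG, and #1 minus #2 with HRG, with filled points at an adjusted p under 0.05. PREX1, CDC20B, CEACAM6, CD164 and MESD stay well below 0 on the HRG arrays, STEAP4 lies at 0.49, and CD164, MESD and DCUN1D3 are also lower than with #2.

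Set against parental cells, P-Rex1 RNAi #1 gave 6 lower and 0 higher probe sets (0.0285% and 0%). Of the 9 called genes all 9 had a lower mean than in parental cells, by differences between -0.33 for STEAP4 and -1.61 for PREX1, and 7 passed the adjusted p. Of the 89 lower probe sets 32 passed it (all tested, 0.29%). Of the 12 higher ones 3 passed it (all tested, 0.019%), namely ELAPOR2, POLR3G and NKAIN1. The #1 arrays are those on which the genes were called. NTC and parental cells differed from each other at the adjusted p in 2 probe sets (0.0095%).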

How the data were processed

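RNA of T-47D cells was hybridised to 24 Affymetrix Human Gene 1.0 ST arrays. The deposited values are log2 expression, which the authors had background-corrected, normalized and summarised by RMA (simpleaffy, version not given in the sources used here), and were used as deposited. Array data carry no read depth, so the number of arrays limits the precision. Probe sets were named from the platform annotation (19292 with 1 symbol, 1750 with several, 7494 with none and left out), of which 19261 single-symbol probe sets matched RefSeq by Entrez ID.

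Groups came from the sample labels, 3 biological replicates each. limma 3.58.1 in R 4.3.3 fitted a mean per group over all 24 arrays, so that the spread is shared, with Benjamini-Hochberg adjustment over the 21042 probe sets. The text names all called single-symbol genes, the 15 lower and 15 higher (9 existed, with ARHGAP15 added as the largest that missed) with the largest differences past the adjusted p alone, and the members of 37 gene lists (873 of 961 genes measured) by their extremes and known roles, with RAC1 added as the substrate of P-Rex1. Another gene list is not reported here. These members and lists were chosen with earlier results of these data known. Alternatives covered the arrays and probe sets fitted, limma's trend and array weights, a block on the replicate number, the thresholds, Rank Products, parental cells as control and each array left out. The script was tested on simulated data.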

Additional observations from a re-analysis of the deposited data

Results flagged for a closer look

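The effect of P-Rex1 RNAi #1 differed between HRG and vehicle in 2 of the 9 called genes. For PREX1 the difference of differences was 0.51, from -0.92 with HRG and -1.43 with vehicle, so the gap was smaller with HRG. For STEAP4 it was 1.14, from 0.49 with HRG and -0.65 with vehicle. Both passed the limma interaction test, but the genes had been chosen on the vehicle arrays that enter it.

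The 2 duplexes differed in 3 of the 9 called genes in vehicle. #1 minus #2 was -0.69 for MESD, -0.62 for CD164 and -0.38 for CEACAM6, whose adjusted p of 0.0499 lies at the threshold.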

How the results depend on the processing

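The 9 lower calls became 1 when only the 6 arrays were fitted (PREX1, with CD164 at an adjusted p of 0.0587), 14 with Rank Products, 62 at a fold limit of 0.32 on the log2 scale, 89 with no fold limit and 5 from replicates 1 and 3, an alternative chosen after seeing the data. The 0 higher calls became 1 with limma's trend, 1 at an adjusted p of 0.1, 1 from replicates 1 and 3, 2 with all probe sets tested, 2 with array weights, 8 with Rank Products, 11 at that fold limit and 12 with no fold limit. The 2 called members of the gene lists (PREX1 and LRRC31) became 1 with 6 arrays, with the 12 vehicle arrays and from replicates 1 and 3, 4 at that fold limit, 5 with Rank Products and 6 with no fold limit. Of the called genes, 5 instead of 3 differed from #2 with array weights, and 4 instead of 2 had an interaction with HRG, against 0 from replicates 1 and 3. At the adjusted p alone, array weights gave 679 lower and 429 higher probe sets, and a fit of the 6 arrays 1 and 0.

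With the replicate number as a block, lower calls were 10, higher calls 1, called genes that differed from #2 5, and PREX1 stayed at -1.43. At the adjusted p alone 230 were lower and 39 higher. Same-numbered arrays of the 2 groups deviated together with correlations of 0.251, 0.096 and 0.141. Differently numbered arrays correlated between -0.22 and 0.1. P-Rex1 RNAi #1 replicates 1 and 3 correlated best with their own number. Replicate 2 correlated almost equally with NTC replicate 2 (0.096) and NTC replicate 3 (0.1). Whether the numbers pair the arrays is not settled by these values, and the main fit does not use the replicate number.

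With each array left out in turn, lower calls ranged between 6 and 16, higher calls between 0 and 1, called list members between 1 and 2, called genes that differed from #2 between 2 and 4, those with an interaction between 1 and 4, and PREX1 between -1.48 and -1.38. The 16 came without #1 replicate 1 and held all 9. LRRC31 and C1GALT1C1 lost the call without #1 replicate 2 or 3 or NTC replicate 1 or 2, STEAP4 without #1 replicate 2 or any NTC array, and LMO3 without #1 replicate 2 or NTC replicate 3. With parental cells in place of NTC, the difference of PSKH1 turned to -0.0356. The causes were not tested. Over the named genes and these settings, 403 results kept direction and side of the threshold, 185 fell short of it, 3 newly passed it and 1 reversed.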

Other observations

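NRN1 split the 24 arrays by more than their groups did. It read 4.23 to 4.57 in replicate 1 of all 8 groups. In replicate 2 it read 5.99 to 8.26 in the 4 groups with P-Rex1 RNAi and 4.46 to 4.61 in the NTC and parental groups. In replicate 3 it read 6.64 to 8.43 in 7 groups and 4.74 with P-Rex1 RNAi #2 and HRG. VIM followed the same split, at 6.00 in that last array and 6.81 to 7.39 in the other replicate 3 arrays. The pattern was noticed after the values were seen, and the difference of NRN1 between P-Rex1 RNAi #1 and NTC did not pass the test (0.91, SE 1.27, limma adjusted p = 0.794).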
